A study of Mus musculus with 42 samples.

Results

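The response to dietary omega-3 fatty acids was compared between the aorta and the liver of mice, gene by gene, as a difference of differences: omega-3 minus control in the aorta, less omega-3 minus control in the liver. The comparison used 28 of the 42 libraries of the study, 14 from aorta and 14 from liver, and the 4035 of 48709 genes with enough counts in both tissues. All mice were of the strain K14-Rac1V12, in which the keratin 14 promoter drives a constitutively active Rac1 in keratinocytes, a model of psoriasis-like skin disease, so the transgene was carried by the control mice too. Every mouse first ate the Omega-3 Deficient (OD) diet for 2 weeks and was then assigned, at 14 weeks of age, to 12 more weeks of the OD diet, of an EPA-rich diet or of a DHA-rich diet, with 5 mice assigned to each. The labels give 3 g per kg of diet for both supplemented diets, matched to 4 g daily in a person of 70 kg, although the text for the DHA diet names EPA beside its dose. Each tissue had 4 OD, 5 EPA and 5 DHA libraries, and the EPA and DHA libraries were pooled as 10 omega-3 libraries. Vessels and liver were flushed with cold saline, and the aorta was taken from its origin to the iliac bifurcation with perivascular fat removed. The measurement was a 3′ tag count per gene from 10 ng of RNA, and libraries replicate mice within a tissue. No label ties an aorta to a liver, so the libraries were treated as independent. With 5 mice assigned per diet, the 5 EPA and 5 DHA libraries of both tissues probably came from the same mice. The standard errors and p-values of the difference take no account of such sharing.

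EPA and DHA are long-chain polyunsaturated fatty acids. In rodent liver they are known to lower the activity of SREBP1, the transcription factor that switches on fatty acid synthesis genes, and to activate PPAR alpha, a nuclear receptor that switches on fatty acid oxidation genes. The arterial wall consists of smooth muscle, endothelium and adventitia, and in mice its outer side is surrounded by fat that resembles brown adipose tissue in the chest and white adipose tissue in the abdomen. Brown adipocytes are rich in mitochondria and can both synthesise and oxidise fatty acids.

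Libraries held 179795 to 717508 counts in aorta and 343824 to 768532 in liver. The OD livers were deeper (549635 to 768532) than the omega-3 livers (343824 to 497332). Each tissue carried its own markers: Alb was read 16092 to 34352 times in the livers, and Acta2, the smooth muscle actin, reached 3439 to 8782 CPM (counts per library scaled to the same total) in the aortas. Alb, Apoa1, Ttr, Fgb and Serpina3k were present in aorta at 0.460% to 0.611% of their median liver level. Acta2, Myh11 and Tagln were present in liver at 0.308% to 0.440% of their median aorta level. Adipocyte transcripts were present in the aortas although the fat had been dissected away: Ucp1, the uncoupling protein of brown fat, was at 441 to 1306 CPM in OD and 859 to 2233 CPM in omega-3 aortas, against 0 to 6.44 CPM in the livers. In bulk tissue, more cells of a type and more RNA of a gene per cell cannot be told apart. In each tissue 3 omega-3 libraries (2 EPA and 1 DHA), and no OD library, had Xist, the transcript of the inactive X chromosome, above 200 CPM. They were EPA replicates 1 and 5 and DHA replicate 1 in both tissues, numbered in accession order. Whether libraries of the same number came from 1 mouse was not tested. The Y-linked genes Ddx3y, Eif2s3y, Kdm5d and Uty summed to 0 to 2 counts in these libraries and 9 to 132 in all others. By these transcripts the high-Xist libraries looked female and every OD library male, so sex was unbalanced between the diets. The labels do not give the sex, and its part was not tested beyond leaving these libraries out.

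The diet response differed between aorta and liver for 71 genes (1.76% of the genes tested; adjusted p under 0.05, edgeR quasi-likelihood test). In 63 of them (1.56%) the response was higher in the aorta, and in 8 (0.198%) it was lower. Among those 63 the median change was 0.74 on the log2 scale in aorta and -0.18 in liver; among the 8 it was -0.48 and 0.86. The fitted changes had opposite signs in 65 of the 71 (1.61% of genes tested), but for 24 of the 71 the liver change was smaller than its own standard error, and 24 of the 65 had a liver change with an unadjusted p under 0.05. Choosing genes by the size of the difference itself favours opposite signs, so the 65 is partly set by the choice. Within single tissues, 273 of the same 4035 genes (6.77%) changed in aorta, 251 up (6.22%) and 22 down (0.545%), whereas 3 (0.0743%) changed in liver, namely Fmo2, which rose (0.0248%), and Elovl3 and Nudt7, which fell (0.0496%). Of the 273 genes that changed in aorta, a choice that leaves the liver out, 148 had the same sign in liver. With a liver change at an unadjusted p under 0.05, 19 of the 273 had the same sign and 11 the opposite one. The OD and omega-3 libraries did not overlap in CPM for 67 genes in aorta (1.66%) and 14 in liver (0.347%). An unadjusted p under 0.05 was reached by 742 genes in aorta, 327 in liver and 554 for the difference. Elovl3 was alone in passing the threshold in both tissues in opposite directions, and no gene passed in both in the same direction. Over all 4035 genes the aorta and liver changes had a Pearson correlation of -0.011 and a Spearman correlation of -0.0024, given as a description since genes share their libraries, and 49.9% of genes had the same sign in both.

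**Figure D1:**
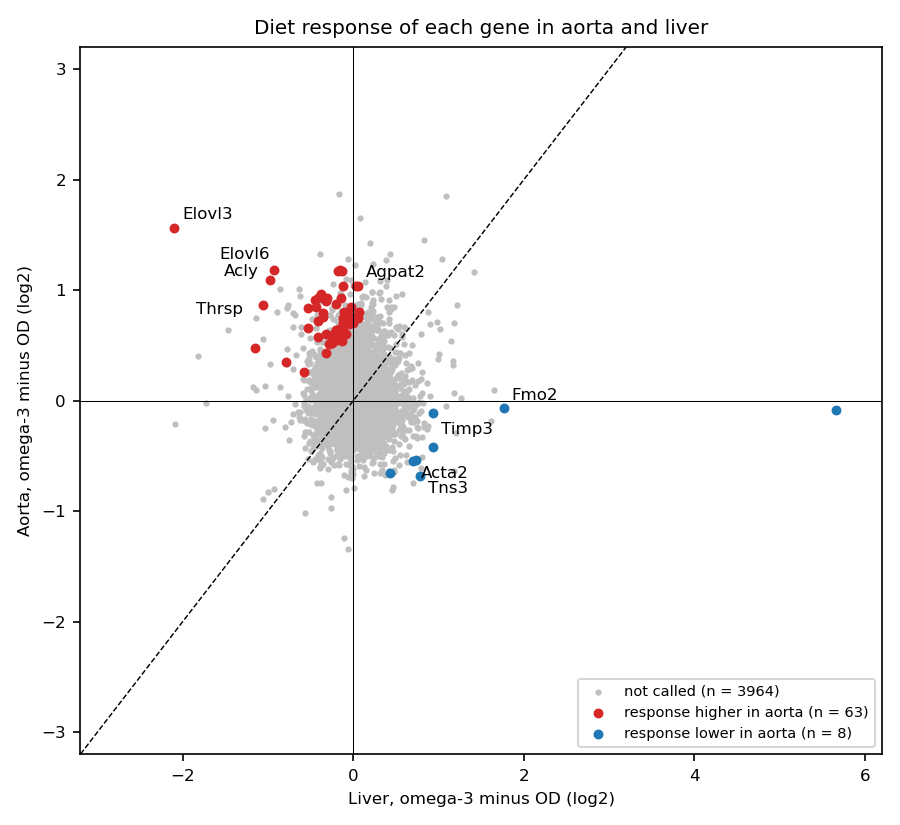
Each point is 1 of 4035 genes, placed by its log2 change, omega-3 minus OD, in liver (horizontal axis) and in aorta (vertical axis), with the dashed line marking equal changes. The 63 red genes, whose response was higher in aorta, lie mostly above the horizontal zero line and near or left of the vertical one, with Elovl3 farthest to the left among them; the 8 blue genes, whose response was lower in aorta, lie to the right of the vertical zero line, with Fmo2 close to the horizontal one.

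These calls leaned on few control libraries. Leaving out one library at a time gave between 7 and 150 differing genes: 14 without aorta OD replicate 3, 7 without aorta OD replicate 4, 9 without liver OD replicate 1, 7 without liver OD replicate 4 and 150 without aorta EPA replicate 1. Of the 36 differing genes described by name here, Elovl3, Fmo2, Ndufa8, Cycs and Chchd10 were the 5 that passed without each of the 28 libraries in turn. Across all 44 alternative settings, every one of the 71 genes that could be tested kept the sign of its difference. Without the 3 high-Xist libraries of each tissue, 123 genes differed, 112 of them higher in aorta. The split by direction depended on scaling: with library totals alone 3 genes were higher and 29 lower in aorta, and the median change of all genes moved to -0.16 in aorta and 0.15 in liver. The liver medians of the respiratory chain, citric acid cycle, mitochondrially encoded and glucose metabolism lists turned from slightly negative to positive (0.09, 0.13, 0.01 and 0.0078).

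**Figure D2:**
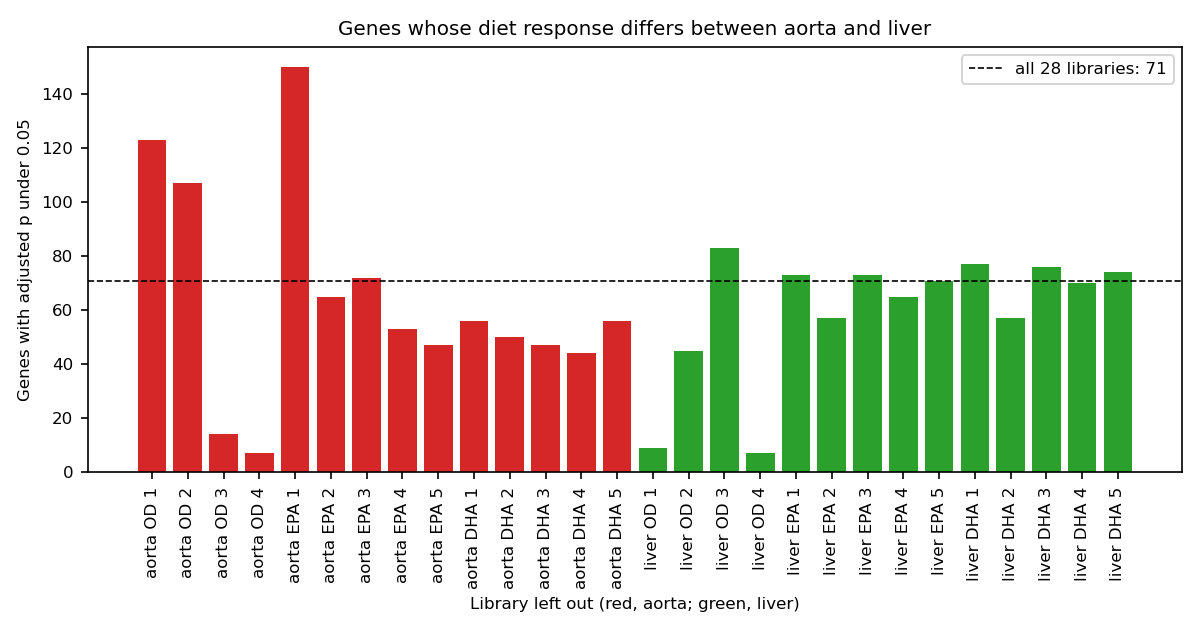
Bars give the number of genes whose diet response differed between aorta and liver (vertical axis) when the library on the horizontal axis was left out, with aorta libraries in red and liver libraries in green; the dashed line marks 71, the count with all 28. The lowest bars, at 7, belong to aorta OD 4 and liver OD 4, and the highest, at 150, to aorta EPA 1.

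Elovl3 rose in aorta and fell in liver, and no other gene changed in both. It encodes a fatty acid elongase that extends saturated and monounsaturated chains, is a marker of brown adipocytes, and lies at chr19:46131897-46135694, plus strand (GRCm38, protein-coding). In aorta it was at 38.1, 46.9, 21.5 and 13.1 CPM in the OD libraries and 27.8 to 149 (median 89.04) CPM in the omega-3 libraries. In liver the order was turned round, with 100.1, 18.3, 78.8 and 34.7 CPM in OD and 0 to 33.6 (median 12.1) CPM in omega-3 libraries. The ranges of the 2 diets overlapped in both tissues. Elovl3 rose 2.96-fold in aorta (log2 1.56 ± 0.42 SE, adjusted p = 0.0167) and fell 4.29-fold in liver (log2 -2.10 ± 0.44, adjusted p = 0.0459). The difference of the responses was 3.67 ± 0.61 (adjusted p = 0.00195). The high-Xist livers had 0 to 8.17 CPM and the other omega-3 livers 2.19 to 33.6 CPM. Without the high-Xist libraries the difference was 3.51 (adjusted p = 0.00186), while the fall in liver no longer passed (-1.75, adjusted p = 0.123). Elovl3 passed in both tissues in 10 of the 44 alternative settings.

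**Figure D3:**
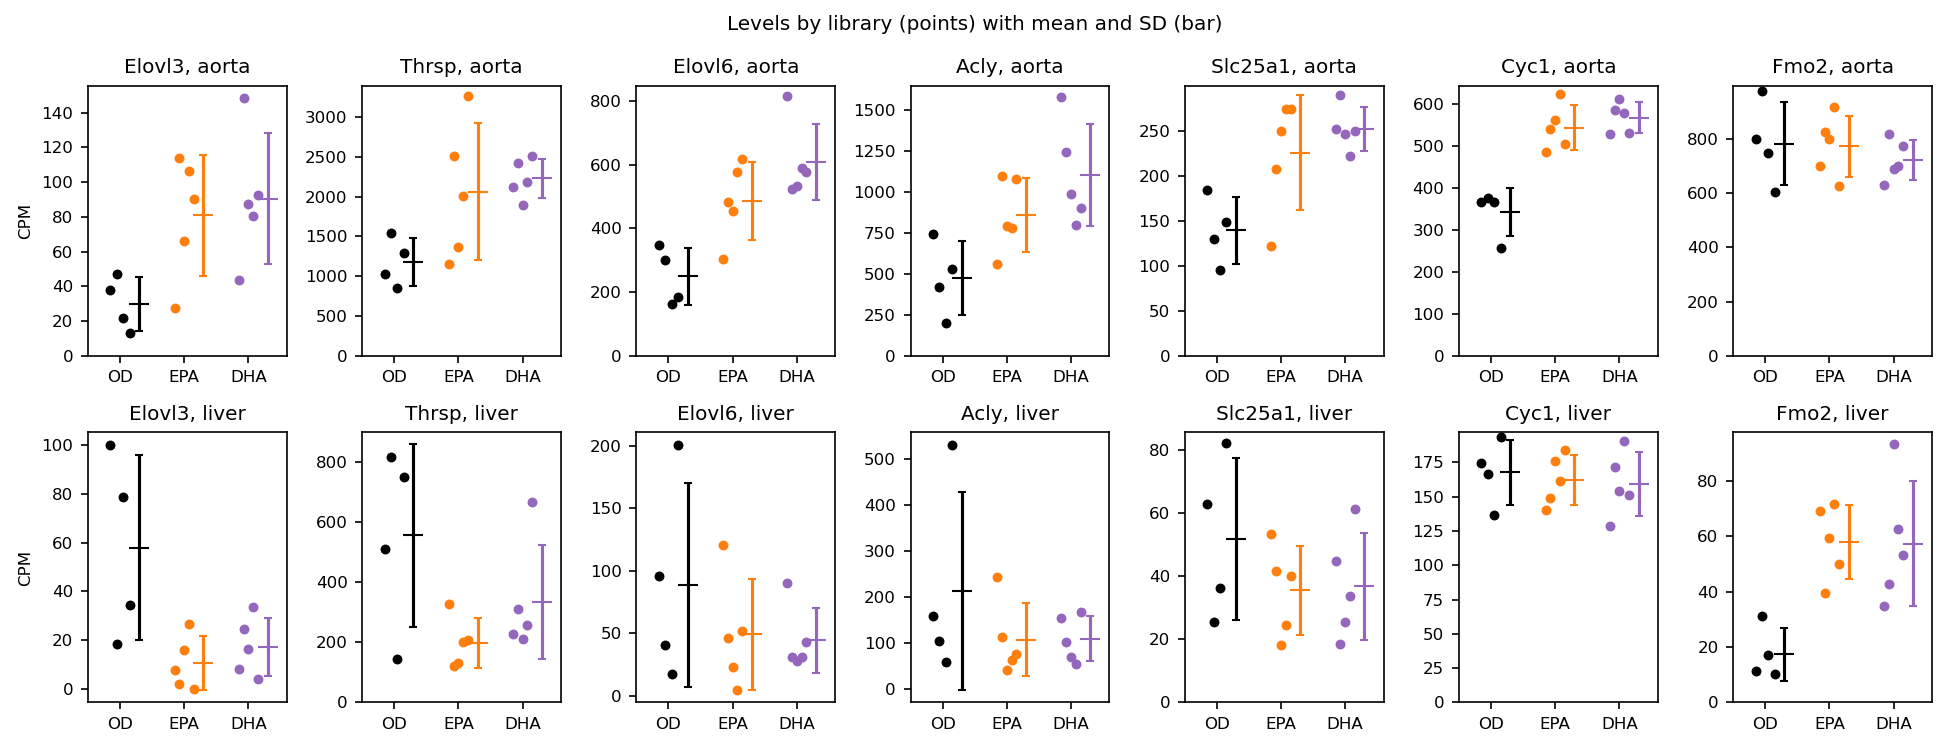
Points are libraries, with CPM on the vertical axes and diet on the horizontal axes, and bars give the mean and SD of 4 OD, 5 EPA or 5 DHA libraries; the upper row is aorta and the lower row liver. Elovl3, Thrsp, Elovl6, Acly and Slc25a1 have higher means under EPA and DHA in aorta and lower means in liver, Cyc1 is higher in aorta alone with no overlap of OD and omega-3 libraries, and Fmo2 is higher in liver alone with no overlap.

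Genes of fatty acid synthesis had, on balance, positive changes in aorta and negative ones in liver. Of the 23 genes on a list of lipogenic enzymes and SREBP1 targets, 16 were tested, 13 of them with a positive change in aorta and a negative one in liver. Over all 4035 genes tested, 1029 had these signs. Of the 16, 4 differed between tissues, all with the higher response in aorta, against 1.56% of all genes tested. The median change of the 16 was 0.81 in aorta and -0.58 in liver, against 0.02 and 0.01 over all genes tested. In the single tissues 3 of the 16 rose in aorta and none passed in liver, against 6.22% and 0.0743% of all genes tested. The list's mean log2 CPM overlapped between diets in both tissues, at 6.08 to 8.17 in OD livers and 5.93 to 7.63 in omega-3 livers, the OD livers spanning the wider range. Without liver OD replicate 4 the liver median of the list was -0.03, no member differed, and the median difference fell from 1.41 to 0.82. No member differed without aorta OD replicate 3 or 4 or liver OD replicate 1 either, whereas 9 of 16 did without the high-Xist libraries. Scd2 was not tested in both tissues.

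The 4 that differed were Thrsp, Elovl6, Acly and Slc25a1. Acly, ATP citrate lyase, makes acetyl-CoA for fatty acid synthesis from citrate. It was at 743, 420.4, 201 and 533 CPM in OD and 564 to 1579 (median 948) CPM in omega-3 aortas. In liver it was at 159, 106, 59.6 and 531 CPM in OD and 41.2 to 243 (median 90.99) CPM in omega-3 libraries, liver OD replicate 4 standing far above the rest. The Acly response was 2.07 ± 0.54 higher in aorta (adjusted p = 0.0361), from changes of 1.09 ± 0.38 in aorta and -0.98 ± 0.38 in liver that did not pass on their own (adjusted p = 0.0836 and 0.507). Slc25a1, the carrier that brings citrate out of mitochondria, was at 184, 129.9, 95.1 and 149 CPM in OD and 122 to 290.1 (median 250.1) CPM in omega-3 aortas. Its liver values were 62.9, 25.6, 36.2 and 82.3 CPM in OD and 18.3 to 61.3 (median 36.8) CPM in omega-3 libraries. Slc25a1 rose in aorta (0.84 ± 0.22, adjusted p = 0.0133), and its responses differed by 1.37 ± 0.35 (adjusted p = 0.0356).

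Elovl6, which elongates palmitate to stearate, was at 349, 299.9, 163 and 186 CPM in OD and 303 to 814 (median 554) CPM in omega-3 aortas. In liver it was at 95.8, 40.2, 17.0 and 201 CPM in OD and 4.48 to 121 (median 37.1) CPM in omega-3 libraries, so the diets overlapped widely there and narrowly in aorta. It rose in aorta (1.18 ± 0.36, adjusted p = 0.0351), and the difference was 2.12 ± 0.53 (adjusted p = 0.0353). Thrsp, a nuclear regulator of lipogenesis also called Spot 14, was at 1022, 1537, 851 and 1296 CPM in OD and 1152 to 3267 (median 2154) CPM in omega-3 aortas. Its liver values were 512, 817, 145 and 751 CPM in OD and 121 to 666 (median 219) CPM in omega-3 libraries, with liver OD replicate 3 low and DHA replicate 5 high. The responses of Thrsp differed by 1.93 ± 0.46 (adjusted p = 0.0302). All 4 lost the call without aorta OD replicate 3 or 4, or liver OD replicate 1 or 4. Without the high-Xist libraries the differences were 2.81 for Elovl6, 2.36 for Acly, 1.62 for Slc25a1 and 1.91 for Thrsp, and all 4 passed.

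Several core lipogenic genes had large differences that did not pass. The difference was 1.64 ± 0.52 for Fasn, fatty acid synthase (adjusted p = 0.0948), and 1.58 ± 0.49 for Me1, the malic enzyme that supplies NADPH (adjusted p = 0.0881). Scd1, the desaturase that makes monounsaturated fatty acids, had 1.20 ± 0.59 (adjusted p = 0.367), with liver OD libraries from 471 to 7507 CPM. Without the high-Xist libraries Fasn and Me1 passed (2.01, adjusted p = 0.0307, and 2.01, adjusted p = 0.0182). Fads1, a desaturase of polyunsaturated fatty acid synthesis, had -0.34 ± 0.23 in aorta and -0.35 ± 0.15 in liver, a difference of 0.01 ± 0.34 (adjusted p = 0.998). Elovl5, the elongase of that pathway, had a difference of 0.44 ± 0.39, and Srebf1, which encodes SREBP1, one of 0.36 ± 0.42 (adjusted p = 0.686 and 0.784). For Insig1, which holds SREBP proteins in the endoplasmic reticulum, it was 0.95 ± 0.31 (adjusted p = 0.0994).

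The promoters of the 4 differing lipogenic genes, and of Ndufa8, the respiratory chain gene with the smallest p, are shown because their genes moved with others of the same pathway. Each sequence is the 300 bases from 250 before to 50 after the RefSeq start site in GRCm38.p6, read 5′ to 3′ on the gene's strand. They lie at chr7:97417501-97417800 (minus strand) for Thrsp, chr3:129532136-129532435 (plus strand) for Elovl6, chr11:100527951-100528250 (minus strand) for Acly, chr16:17928170-17928469 (minus strand) for Slc25a1 and chr2:36049289-36049588 (minus strand) for Ndufa8. Capitals mark, on either strand, the CCAAT box (CCAAT), the E-box CACGTG, the sterol element TCACNCCAC and the nuclear respiratory factor 1 motif (GCGCA, any base, GCGC); no 2 matches overlap in these 5.
Thrsp: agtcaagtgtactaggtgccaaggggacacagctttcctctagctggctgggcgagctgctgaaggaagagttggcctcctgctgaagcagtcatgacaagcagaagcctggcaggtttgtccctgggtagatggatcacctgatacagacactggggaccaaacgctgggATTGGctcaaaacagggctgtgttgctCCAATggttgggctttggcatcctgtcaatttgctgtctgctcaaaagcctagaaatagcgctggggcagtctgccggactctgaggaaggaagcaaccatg
Elovl6: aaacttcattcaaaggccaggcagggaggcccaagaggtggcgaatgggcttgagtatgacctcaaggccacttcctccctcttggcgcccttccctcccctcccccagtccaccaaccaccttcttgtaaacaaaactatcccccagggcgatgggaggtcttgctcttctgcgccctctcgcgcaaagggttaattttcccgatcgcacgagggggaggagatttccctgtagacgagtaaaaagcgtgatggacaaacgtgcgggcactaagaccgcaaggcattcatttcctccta
Acly: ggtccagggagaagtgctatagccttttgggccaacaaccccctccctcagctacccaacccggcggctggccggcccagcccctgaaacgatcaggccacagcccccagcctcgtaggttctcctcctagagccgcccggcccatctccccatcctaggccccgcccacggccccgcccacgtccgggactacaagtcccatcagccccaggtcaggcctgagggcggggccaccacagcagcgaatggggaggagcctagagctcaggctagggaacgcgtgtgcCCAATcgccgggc
Slc25a1: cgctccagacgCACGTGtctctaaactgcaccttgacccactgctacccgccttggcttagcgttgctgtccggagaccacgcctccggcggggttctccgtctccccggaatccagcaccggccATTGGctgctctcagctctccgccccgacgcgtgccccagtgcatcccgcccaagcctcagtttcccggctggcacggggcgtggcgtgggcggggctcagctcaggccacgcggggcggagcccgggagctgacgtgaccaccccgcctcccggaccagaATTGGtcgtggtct
Ndufa8: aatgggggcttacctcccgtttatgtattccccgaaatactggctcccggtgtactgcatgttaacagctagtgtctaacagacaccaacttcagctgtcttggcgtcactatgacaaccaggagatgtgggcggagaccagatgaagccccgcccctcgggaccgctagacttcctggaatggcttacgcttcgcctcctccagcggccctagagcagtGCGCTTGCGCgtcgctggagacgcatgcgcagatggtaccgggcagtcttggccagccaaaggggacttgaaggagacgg

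Thrsp held CCAAT boxes starting at -79 and -52 from the start site, Slc25a1 held them at -125 and 36 with an E-box at -239, and Acly held one at 37. Ndufa8 held the nuclear respiratory factor motif at -30, and Elovl6 held none of the 4 motifs in this window. Of the tested lipogenic genes with a promoter in the table, 10 of 14 held a CCAAT box, as did 8 of 9 genes of cholesterol synthesis, against 37.9% of 27025 promoters of the same length and 39.3% of those of tested genes. The sterol element was in 1 of 14 and 1 of 9, against 1.22% of all and 1.20% of those of tested genes, and the E-box in 3 of 14 and 1 of 9, against 7.24% of all and 11.6% of those of tested genes. The nuclear respiratory factor motif was in 16 of 63 oxidative phosphorylation promoters, against 4.78% of all and 13.2% of those of tested genes. The ERR element TCAAGGTCA was in 2 of 63 oxidative phosphorylation promoters and none of the lipogenic or cholesterol ones, against 0.407% of all, and the DR1 element of PPAR was in none of these sets, against 0.0444% of all. Neither was in the promoters shown. Of the 71 differing genes, 58 had a promoter in the table. A CCAAT box was in 41.4% of these 58, the nuclear respiratory factor motif in 17.2%, the E-box in 3.45% and the sterol element in 1.72%. The promoters of tested genes held them in 39.3%, 13.2%, 11.6% and 1.20%. A match describes the letters and is not evidence of binding.

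Taldo1, Tkt, Acat2 and Agpat2, of pathways that feed or use new fatty acids, also had a higher response in aorta. The median change of 8 tested genes of the pentose phosphate pathway and NADPH supply was 0.53 in aorta and -0.16 in liver. Of these 8, 3 rose in aorta, against 6.22% of all genes tested. Taldo1 (transaldolase, difference 1.14 ± 0.25, adjusted p = 0.0189) and Tkt (transketolase, 1.35 ± 0.35, adjusted p = 0.0361) differed between tissues. Over all genes tested, 1.56% had a response called higher in aorta. Pgd, phosphogluconate dehydrogenase, rose in aorta (1.28 ± 0.24, adjusted p = 0.00134) from 152, 122, 57.4 and 73.6 CPM in OD to 164 to 305 (median 232) CPM, without overlap, but its difference of 1.35 ± 0.44 did not pass (adjusted p = 0.106). G6pdx, the first enzyme of that pathway, had too few counts to be tested in both tissues. Of 24 genes of cholesterol synthesis and uptake 12 were tested, 9 with a positive change in aorta and a negative one in liver. Over all 4035 genes tested, 1029 had these signs. The medians of the 12 were 0.40 and -0.50, and without liver OD replicate 4 the liver median was -0.10. Acat2, which makes acetoacetyl-CoA, was the one that differed (1.18 ± 0.29, adjusted p = 0.0302). Taldo1, Tkt and Acat2 each lost the call without aorta OD replicate 3 or 4, liver OD replicate 1 or 4, or with library totals alone. Fdps, farnesyl diphosphate synthase, had 1.63 ± 0.58 (adjusted p = 0.148), with OD livers at 209, 108, 46.9 and 471 CPM. Among 11 genes of triglyceride synthesis and lipid droplets 6 rose in aorta, against 6.22% of all genes tested, and 1 rose without aorta OD replicate 4 and 2 with library totals alone. The medians of the 11 were positive in both tissues (0.70 and 0.15). Agpat2, which makes phosphatidic acid for triglycerides, differed, with a rise in aorta (1.04 ± 0.15) and a liver change of 0.05 ± 0.16 (adjusted p of the difference = 0.0201), and lost the call without aorta OD replicate 3 or 4, liver OD replicate 1 or 4, or with library totals alone.

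The mitochondrial respiratory chain supplied 23 of the 71 differing genes. All 76 nuclear genes on the oxidative phosphorylation list were tested. Of these, 64 rose in aorta, none passed in liver, and 23 differed between tissues, all with the higher response in aorta. The shares over all genes tested were 6.22%, 0.0743% and 1.56%. The median change of the 76 was 0.59 in aorta and -0.05 in liver, and 44 of the 76 liver changes were negative, against 1936 of all 4035. The count of 23 fell to 5 without aorta OD replicate 3, to 2 without aorta OD replicate 4 and to 2 without liver OD replicate 1 or 4, and rose to 37 without the high-Xist libraries. The aorta median stayed between 0.50 and 0.65 in these, while the count of 64 in aorta fell to 16 without aorta OD replicate 4. With library totals alone 1 of the 76 differed and 29 changed in aorta, at a median of 0.43. Cyc1, the cytochrome c1 subunit of complex III, was at 368, 378, 368 and 258 CPM in OD and 487 to 626 (median 553) CPM in omega-3 aortas, which did not overlap. In liver it was at 174, 166, 136 and 193 CPM in OD and 129 to 190.4 (median 157) CPM in omega-3 libraries, a common range. The Cyc1 response was 0.78 ± 0.17 higher in aorta (adjusted p = 0.0189), with changes of 0.71 ± 0.12 in aorta (adjusted p = 0.00049) and -0.07 ± 0.12 in liver. Ndufa8, a subunit of complex I, was at 139.7, 175, 154 and 128 CPM in OD and 174 to 321 (median 261) CPM in omega-3 aortas. Its liver values were 159, 121, 136 and 165 CPM in OD and 79.6 to 137 (median 117) CPM in omega-3 libraries. Ndufa8 rose in aorta (0.76 ± 0.14, adjusted p = 0.00114), its liver change was -0.36 ± 0.14 (adjusted p = 0.502), and the difference was 1.12 ± 0.20 (adjusted p = 0.00211).

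More mitochondrial genes with a higher response in aorta follow, of which Cox6b1 and Cycs are among the 23 respiratory chain genes already counted. Cox6b1, a subunit of cytochrome c oxidase, differed by 0.87 ± 0.19 (adjusted p = 0.0201), and Chchd10, a protein of the mitochondrial intermembrane space, by 1.08 ± 0.20 (adjusted p = 0.00479). Cycs, cytochrome c, differed by 1.35 ± 0.25 (adjusted p = 0.0034), but the near-identical Gm10053 was also called, so the assignment of counts between these copies is uncertain. Mtch2, a protein of the outer mitochondrial membrane, differed by 0.78 ± 0.17 (adjusted p = 0.0201). Ndufc2, another subunit of complex I, rose in aorta (0.80 ± 0.14) without passing for the difference (0.63 ± 0.21, adjusted p = 0.0994). The 13 transcripts of the mitochondrial genome had medians of 0.50 in aorta and -0.13 in liver, and none passed in any of the 3 tests. Of 22 genes of the citric acid cycle and pyruvate entry 17 rose in aorta, against 6.22% of all genes tested, with medians of 0.66 and -0.01. The 2 that differed between tissues, against 1.56% of all genes tested with a higher response in aorta, were Dlat, a subunit of pyruvate dehydrogenase (1.14 ± 0.28, adjusted p = 0.0302), and Mdh1 (0.77 ± 0.20, adjusted p = 0.0361). Mdh1, though on this list, encodes the cytosolic malate dehydrogenase and not the mitochondrial one. The 17 fell to 2 without aorta OD replicate 4 and to 3 with library totals alone, and neither difference passed without aorta OD replicate 3 or 4, liver OD replicate 1 or 4, or with library totals alone.

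Fatty acid oxidation genes, many of them PPAR alpha targets, had positive medians in both tissues. Of 48 on the list 31 were tested, 24 with the same sign in both, against 49.9% of all genes tested. The median change was 0.65 in aorta and 0.20 in liver. Of the 31, 17 rose in aorta, none passed in liver and 3 differed between tissues, with the higher response in aorta. The shares over all genes tested were 6.22%, 0.0743% and 1.56%. The 3 that differed were Hadha, of the trifunctional protein (0.88 ± 0.22, adjusted p = 0.0322), Etfa, which passes electrons from acyl-CoA dehydrogenases (0.82 ± 0.20, adjusted p = 0.0302), and Hsd17b4, of peroxisomal oxidation (0.78 ± 0.20, adjusted p = 0.0361). The 17 fell to 4 without aorta OD replicate 4 and to 8 with library totals alone; the 3 differences fell to 1 without aorta OD replicate 3 and to 0 with library totals or without aorta OD replicate 4 or liver OD replicate 1 or 4. Hadha was at 381, 477, 349.9 and 266 CPM in OD and 480.3 to 768 (median 668) CPM in omega-3 aortas, without overlap, and at 164 ± 31.7 (SD, n = 4) and 161 ± 33.6 CPM (n = 10) in liver. Plin2, a lipid droplet coat protein and PPAR target, rose in aorta (1.04 ± 0.24) with a liver change of -0.01 ± 0.23; its difference of 1.05 ± 0.33 missed the threshold (adjusted p = 0.0928) and passed without the high-Xist libraries (1.36, adjusted p = 0.00837). Cpt2, which reforms acyl-CoA inside mitochondria, rose in aorta (0.94 ± 0.20) and had 0.51 ± 0.22 in liver, which did not pass. Cpt1a, which starts fatty acid entry into mitochondria, passed in neither tissue, and its difference was -0.58 ± 0.25 (adjusted p = 0.264). Pdk4 and Cyp4a14 were not tested in both tissues.

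Glucose metabolism genes also had positive changes in aorta. All 16 tested genes of 33 had a positive change in aorta, against 2136 of all 4035 genes tested, and the medians were 0.77 and -0.13. Of the 16, 11 rose in aorta, none passed in liver and 3 differed between tissues, with the higher response in aorta. The shares over all genes tested were 6.22%, 0.0743% and 1.56%. Gpd1, which makes glycerol 3-phosphate, was at 654, 661, 267 and 247 CPM in OD and 644 to 1299 (median 1041) CPM in omega-3 aortas. It differed by 1.34 ± 0.29 (adjusted p = 0.0189), as did Eno1, the glycolytic enolase (1.24 ± 0.29, adjusted p = 0.0274), and Pygl, glycogen phosphorylase (1.28 ± 0.33, adjusted p = 0.0361). Aorta OD replicates 3 and 4 had the lowest Gpd1 values. The 11 that rose fell to 2 without aorta OD replicate 4 and to 6 with library totals alone, and none of the 3 differences passed without aorta OD replicate 3 or 4, liver OD replicate 1 or 4, or with library totals alone. Of 20 glutathione and NRF2 genes 4 rose in aorta, against 6.22% of all genes tested. Sod2, mitochondrial superoxide dismutase (0.73 ± 0.19, adjusted p = 0.0359), and Cat, catalase (0.75 ± 0.19, adjusted p = 0.0361), differed, against 1.56% of all genes tested with a higher response in aorta. The 4 aorta calls became 2 without aorta OD replicate 3, and 1 without aorta OD replicate 4 or with library totals alone. Neither Sod2 nor Cat differed without aorta OD replicate 3 or 4, liver OD replicate 1 or 4, or with library totals alone. Outside the lists, Hsd17b12, a reductase of fatty acid elongation, differed by 1.22 ± 0.26, and Gstz1, an enzyme of tyrosine breakdown, by 0.82 ± 0.18 (adjusted p = 0.0189 for both).

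**Figure D4:**
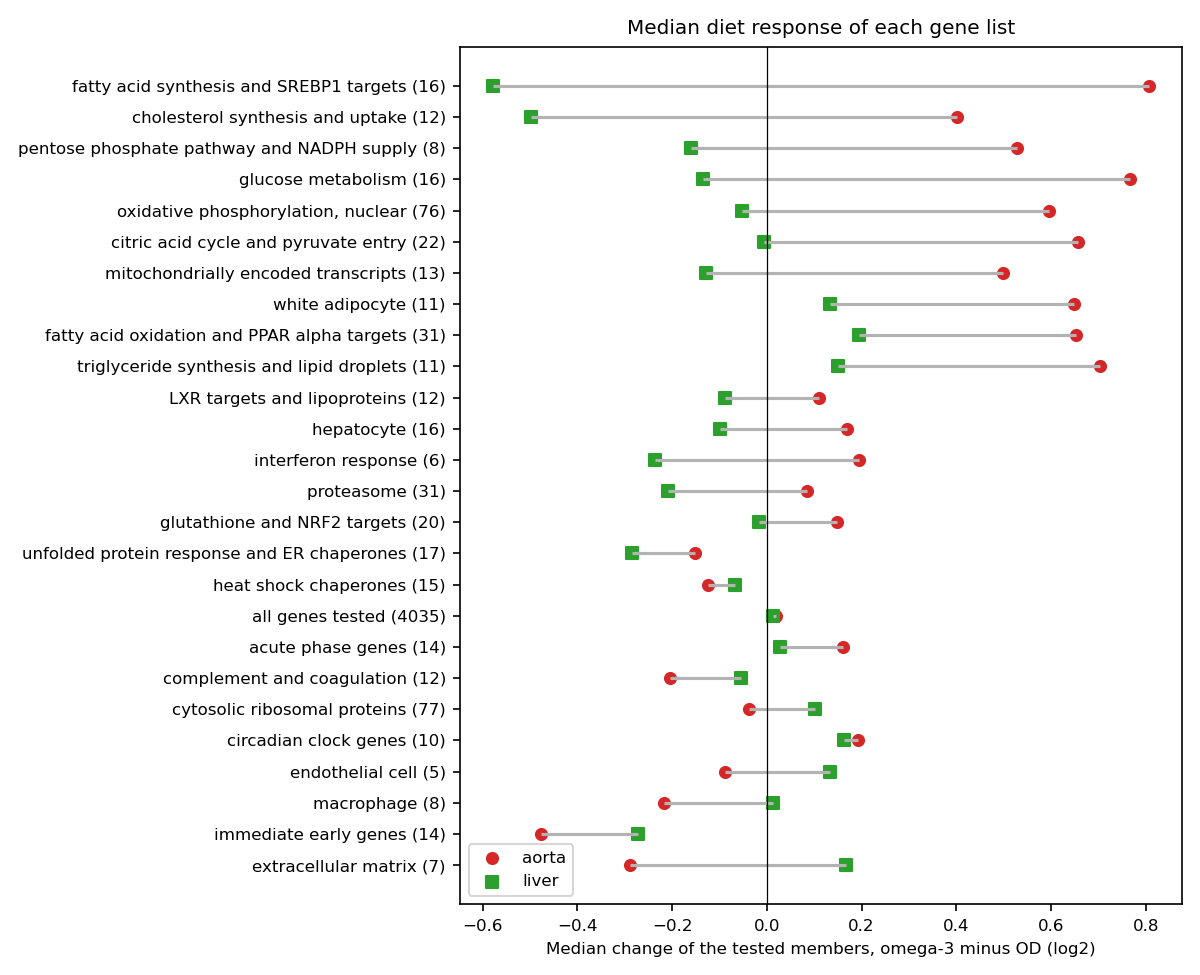
Points give the median log2 change, omega-3 minus OD, of the tested members of each gene list (vertical axis, number tested in parentheses) in aorta (red circles) and liver (green squares), with the horizontal axis in log2 units; lists with at least 5 tested members are shown. The widest gap is for fatty acid synthesis, at 0.81 against -0.58, and the medians over all 4035 genes are 0.02 and 0.01.

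Markers of fat were higher in many of the omega-3 aortas, with overlap. The summed level of the 17 of 18 brown adipocyte markers in the table was 2327 to 5271 CPM in OD and 4581 to 8449.7 CPM in omega-3 aortas, and that of 24 white adipocyte markers, some of which the liver expresses too, 7959 to 12472 and 8542 to 17695 CPM. Smooth muscle markers were at 16096 to 30039.7 CPM in OD and 12358 to 20284 CPM in omega-3 aortas. Skeletal muscle markers, 19 in number, summed to 145 to 532 CPM in OD aortas and to 2169, 1424 and 1195 CPM in aorta EPA replicate 2 and DHA replicates 3 and 5, against 173 to 396 CPM in the other omega-3 aortas. Acta1, the skeletal muscle actin, was at 358, 213 and 147 CPM in these 3 and at 9.76 to 33.1 CPM in OD aortas. Without these 3 libraries, an alternative chosen after seeing the data, 10 genes differed, all among the 71, and 198 changed in aorta; the respiratory chain median in aorta was 0.57, with 2 of 76 differing, and 8 of 16 glucose metabolism genes changed there. Mitochondrially encoded transcripts took 10.97 to 26.9% of OD and 20.96 to 30.8% of omega-3 aorta counts. Aorta OD replicates 3 and 4 had 14.3% and 10.97%, and brown adipocyte sums of 4724 and 2327 CPM. In liver the brown adipocyte sum was 209.8 to 309.7 CPM in OD and 173 to 319 CPM in omega-3 libraries, and Adipoq did not exceed 1 count in any liver. An alternative fit used as a covariate, separately within each tissue, the mean level of the brown adipocyte markers passing the filter there. These were 17 in aorta and 3 in liver, Elovl3 among them in both. With the covariate 1 gene differed (Fmo2) and none changed in aorta. Without both aorta OD replicates 3 and 4, an alternative chosen after seeing the data, 1 gene differed (Fmo2) and 1 changed in aorta. Respiratory chain genes then had a median aorta change of 0.15 with the covariate and 0.43 without those libraries, and fatty acid synthesis genes 0.15 and 0.50. The part of fat or skeletal muscle in the aorta response was not tested beyond these values.

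In the opposite direction, 8 genes had a lower response in aorta. Fmo2, a flavin-containing monooxygenase, lies at chr1:162874317-162898726, minus strand. In liver it was at 11.4, 31.1, 17.0 and 10.1 CPM in OD and 34.7 to 93.2 (median 56.3) CPM in omega-3 libraries, and the diets did not overlap. The aorta, where its level was higher, had 799.9, 975, 748 and 603 CPM in OD and 626 to 915 (median 736) CPM in omega-3 libraries. Reads of Fmo2 numbered 7 to 40 per liver library, at a median 6.52% of its aorta level. Fmo2 rose 3.39-fold in liver (1.76 ± 0.26, adjusted p = 0.000419), with -0.07 ± 0.16 in aorta (adjusted p = 0.906) and a difference of -1.83 ± 0.31 (adjusted p = 0.00195). Its difference passed in all 44 alternative settings, between -2.30 and -1.62. High-Xist livers had 34.7 to 69.2 CPM and the other omega-3 livers 39.5 to 93.2 CPM.

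Timp3, an inhibitor of matrix metalloproteinases, was at 30.0, 31.1, 17.0 and 23.1 CPM in OD and 24.0 to 79.2 (median 51.5) CPM in omega-3 livers, with overlap at the low end of the omega-3 range. Reads of Timp3 numbered 8 to 34 per liver library, at a median 5.06% of its aorta level. Its aorta change was -0.11 ± 0.14, its liver change 0.93 ± 0.21 (adjusted p = 0.0686) and the difference -1.04 ± 0.26 (adjusted p = 0.0306). It was 1 of 7 tested extracellular matrix genes, all 7 with a negative change in aorta and a positive one in liver (medians -0.29 and 0.17), and the one that differed. Over all 4035 genes tested, 2021 had opposite signs in the tissues, in either order, and 0.198% had a response called lower in aorta. Rab5a, a GTPase of early endosomes, fell in aorta (-0.66 ± 0.16, adjusted p = 0.00911) and differed by -1.08 ± 0.25 (adjusted p = 0.0263). Tns3, a focal adhesion protein (-1.47 ± 0.38), Ubald2 (-1.28 ± 0.34) and Helz, a helicase (-1.35 ± 0.36), passed on low counts, with 4 to 13, 6 to 20 and 1 to 15 reads per liver library. Without the high-Xist libraries Tns3 and Helz lost the call (adjusted p = 0.0597 and 0.0813), while Ubald2 kept it (adjusted p = 0.0316). Acta2 differed by -1.25 ± 0.34 (adjusted p = 0.0464), but in liver it was read 6 to 16 times per library, at 0.338% of its aorta level, beside shares of 0.308% for Myh11 and 0.440% for Tagln. Nudt7, a peroxisomal enzyme that splits coenzyme A, belongs with the 63 genes higher in aorta: it fell in liver (-1.15 ± 0.24, adjusted p = 0.0459) with 0.48 ± 0.35 in aorta, a difference of 1.63 ± 0.42 (adjusted p = 0.0361). Without the high-Xist libraries neither its fall in liver (-0.97, adjusted p = 0.202) nor its difference (1.52, adjusted p = 0.055) passed.

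No gene passed in both tissues in the same direction, whereas 39 genes had an unadjusted p under 0.05 in both with the same sign, 27 up and 12 down, beside 27 with opposite signs. Of the 4035 genes, 742 reached such a p in aorta and 327 in liver, so genes can reach it in both without a shared response. The number to be met that way was not worked out, and the 39 are not calls. The 5 of the 39 with the smallest larger p were Dusp1, Crat, Cd36, Gadd45g and Fabp4. Dusp1, an immediate early phosphatase that switches off MAP kinases, was at 305, 408, 285 and 363 CPM in OD and 131 to 275 (median 178) CPM in omega-3 aortas, without overlap. In liver it was at 32.9, 47.5, 29.8 and 31.8 CPM in OD and 9.99 to 30.3 (median 16.6) CPM in omega-3 libraries, which overlapped narrowly. Dusp1 fell in aorta (-0.89 ± 0.14, adjusted p = 0.000481), and its liver change of -1.06 ± 0.24 did not pass (adjusted p = 0.0686). The difference was 0.18 ± 0.27 (adjusted p = 0.863). Dusp1 passed in both tissues with DESeq2, without the count filter, and without aorta EPA replicate 1, liver DHA replicate 3 or liver DHA replicate 5. Gadd45g, a growth arrest gene, fell in aorta (-0.83 ± 0.24, adjusted p = 0.0255) and had -1.0 ± 0.32 in liver (adjusted p = 0.393). Of 36 immediate early genes 14 were tested, 10 with the same sign in both, and the medians were -0.48 and -0.27. Of the 14, 6 fell in aorta and none passed in liver, against 0.545% and 0.0743% of all genes tested. The 6 became 3 without aorta OD replicate 4, 3 of 16 tested without the high-Xist libraries and 1 without both aorta OD replicates 3 and 4. Btg2, an antiproliferative member, fell in aorta (-1.02 ± 0.22) and had -0.57 ± 0.34 in liver. Jun, Ctgf and Cyr61 were not tested in both.

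Among genes with positive changes in both, Crat, carnitine acetyltransferase, was at 159, 139, 126 and 78.5 CPM in OD and 153 to 225 (median 209) CPM in omega-3 aortas. In liver it was at 17.2, 9.14, 10.6 and 10.1 CPM in OD and 12.3 to 34.7 (median 24.4) CPM in omega-3 libraries. Both ranges overlapped through 1 OD library that stood highest. Crat rose in aorta (0.71 ± 0.16, adjusted p = 0.00364) and had 0.98 ± 0.28 in liver (adjusted p = 0.233). Cd36, the fatty acid translocase and a PPAR target, had 0.65 ± 0.21 in aorta and 1.01 ± 0.28 in liver (adjusted p = 0.0502 and 0.231), from 44.3, 14.6, 38.3 and 33.2 CPM in OD livers to 18.4 to 109.9 (median 66.6) CPM. It passed in both tissues with DESeq2. Fabp4, a fatty acid carrier of adipocytes and capillary endothelium, had 0.70 ± 0.23 and 0.90 ± 0.30, but its liver level was 0.751% of that in aorta.

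**Figure D5:**
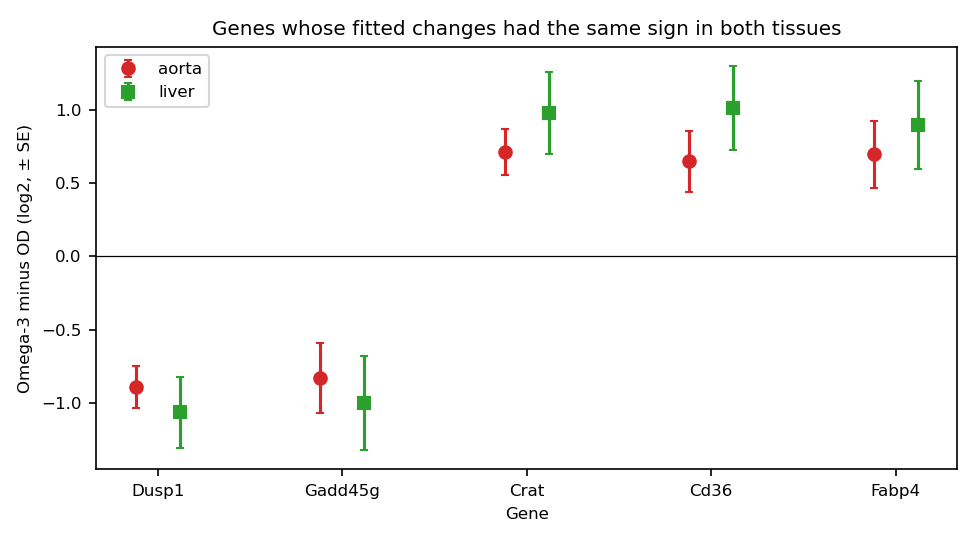
Points give the log2 change, omega-3 minus OD, with its standard error (vertical axis) in aorta (red circles) and liver (green squares) for the 5 genes with the same sign in both tissues and the smallest larger p. Dusp1 and Gadd45g lie below zero and Crat, Cd36 and Fabp4 above it in both tissues; none passed the threshold in both.

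Other lists gave few calls. Of 31 proteasome genes 27 had a negative change in liver (median -0.21) and 22 a positive one in aorta (median 0.08). Over all 4035 genes tested, 1936 were negative in liver and 2136 positive in aorta. Psmb3, a core particle subunit, was the 1 of 31 that differed (0.84 ± 0.21, adjusted p = 0.0306), where 1.56% of all genes tested had a higher response in aorta. It lost the call without aorta OD replicate 3 or 4, liver OD replicate 1 or 4, or with library totals alone. No proteasome gene passed within a tissue. The mean log2 CPM of the 31 was 6.49 to 6.62 in OD livers and 6.23 to 6.41 in omega-3 livers, which did not overlap; the OD livers were also the more deeply sequenced ones, and the part of depth was not tested. With library totals alone the medians were -0.09 in aorta and -0.07 in liver. The 17 tested genes of the unfolded protein response and endoplasmic reticulum chaperones had negative medians in both tissues (-0.15 and -0.28), with no call. Hspa5, the main chaperone among them, had a difference of 0.34 ± 0.30 (adjusted p = 0.68). The 77 cytosolic ribosomal protein genes had medians of -0.04 and 0.10 and no call. Of cell type markers, none of 16 hepatocyte, 5 endothelial or 8 macrophage genes differed, while 2 of 11 white adipocyte genes (Gpd1 and Agpat2), 1 of 3 brown adipocyte genes (Elovl3) and 1 of 4 smooth muscle genes (Acta2) did. None of the tested genes of the heat shock (15), acute phase (14), complement and coagulation (12), circadian clock (10), LXR and lipoprotein (12) and interferon (6) lists differed. Over all genes tested 1.76% differed, a share at which lists this short often hold no call. Alb, Apoa1, Ttr, Fgb and Serpina3k were present in aorta at 0.460% to 0.611% of their median liver level. At such trace levels the lack of a call for hepatocyte and acute phase genes says little about the aorta. Apoe and Abca1, of cholesterol transport, had differences of -0.23 ± 0.22 and 0.11 ± 0.25 (adjusted p = 0.717 and 0.903).

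EPA and DHA taken singly gave the same signs for the leading genes with fewer calls; both share the OD controls, so their values stand side by side without a test of one against the other. With each diet of 5 libraries set against the 4 OD libraries, 3 genes differed between tissues under EPA and 8 under DHA. For Elovl3 the difference of the responses was 3.99 ± 0.74 under EPA and 3.40 ± 0.71 under DHA. For Acly it was 1.90 ± 0.63 under EPA and 2.22 ± 0.63 under DHA, and for Elovl6 1.89 ± 0.62 under EPA and 2.34 ± 0.63 under DHA. Cyc1 had 0.73 ± 0.19 under EPA and 0.82 ± 0.19 under DHA. Fmo2 had -1.79 ± 0.35 under EPA and -1.87 ± 0.35 under DHA, from liver changes of 1.77 and 1.75.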

How the data were processed

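The deposited file used here holds raw counts per gene, whole numbers for 48709 genes in 42 libraries; per the labels' protocols it comes from a 3′ kit (QIAseq UPX) that tags molecules with a UMI, and per the submitters' processing notes the build was GRCm38.p6 and edgeR was used. The aligner, and any collapsing by UMI, was not given in the sources used here. Neither the 14 ear skin libraries nor a second deposited table of normalized values were used. Genes passing filterByExpr (minimum count 10) in both tissues were fitted with edgeR 4.0.16 (R 4.3.3) quasi-likelihood in 1 model of 4 groups, with library sizes scaled by TMM within each tissue; p-values were adjusted (Benjamini-Hochberg) over 4035 genes with a threshold of 0.05. CPM values are the counts scaled to the TMM-adjusted total of the genes passing in that tissue; those of marker sums, Ucp1, Xist and levels across tissues are scaled to the total of all counts, where 3 counts are 4.18 to 16.7 CPM in aorta and 3.90 to 8.73 CPM in liver. Coordinates are GENCODE (GRCm38). Alternatives used DESeq2 1.42.0, limma 3.58.1, other scalings, filters, groupings and libraries, and the code was tested on simulated data. Named genes were up to 12 per direction by p, the 5 leading same-sign genes, up to 4 per list and a fixed set. Some genes are not reported here. Members, lists and named genes were chosen with earlier results of these data known. In 52 within-group pairs of libraries, chi-square per degree of freedom over genes was 2.15 or more, so no pair had the agreement of repeat deposits of 1 library. Depth limits precision: p-values measure the spread between libraries.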

Additional observations from a re-analysis of the deposited data

Results flagged for a closer look

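The diet response differed between tissues for 71 genes by a test of the difference itself, and 36 of them are named in the report. Their differences, aorta minus liver on the log2 scale, were 3.67 for Elovl3, 1.12 for Ndufa8, 1.35 for Cycs, 1.08 for Chchd10, 1.22 for Hsd17b12, 0.78 for Cyc1, 0.82 for Gstz1, 1.34 for Gpd1, 1.14 for Taldo1 and 0.87 for Cox6b1. They were also 0.78 for Mtch2, 0.98 for Agpat2, 1.93 for Thrsp, 2.12 for Elovl6, 1.37 for Slc25a1, 2.07 for Acly, 1.35 for Tkt, 1.18 for Acat2, 0.82 for Etfa and 0.88 for Hadha, then 0.78 for Hsd17b4, 0.84 for Psmb3, 0.73 for Sod2, 0.75 for Cat, 1.24 for Eno1, 1.28 for Pygl, 1.14 for Dlat, 0.77 for Mdh1 and 1.63 for Nudt7. In the other direction they were -1.83 for Fmo2, -1.08 for Rab5a, -1.04 for Timp3, -1.47 for Tns3, -1.28 for Ubald2, -1.35 for Helz and -1.25 for Acta2.

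Of 78 groups of 4 or 5 libraries looked at, 4 had a library far from the others, where about 1 in 20 would by chance. Thrsp stood at 666 CPM in liver DHA replicate 5, above the rest of its group. Elovl6 stood at 814 CPM in aorta DHA replicate 1 and at 89.8 CPM in liver DHA replicate 1, each above its group. Cyc1 stood at 258 CPM in aorta OD replicate 4, below its group.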

How the results depend on the processing

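No paired analysis was possible because the labels tie no aorta to a liver and replicate numbers are names in accession order, although the high-Xist libraries bear the same numbers in both tissues. Each leading count is given here where it moved by over 1.5 times, as genes differing, opposed, changed in aorta and changed in liver; the main counts were 71, 65, 273 and 3. Scaling by library totals alone gave 32, 32, 150 and 9, and turned the split of differing genes from 63 higher and 8 lower in aorta to 3 and 29; it shifted the median difference of all genes to -0.30, and all 71 kept their sign. DESeq2 gave 128 differing (107 higher, 21 lower), 109 opposed, 14 in liver and 3 shared. limma voom gave 165 and 136. A robust prior gave 1 in liver. No count filter gave 15, 14, 16 in liver and 1 shared. EPA alone gave 3, 3 and 83 in aorta, and DHA alone 8 and 8. Fitting each tissue alone gave 1 in liver. Counts thinned to the lowest total gave 3, 3, 46 and 1. Leaving out the high-Xist libraries gave 123 and 106. The brown adipocyte covariate gave 1, 1, 0 and 6. Leaving out both aorta OD replicates 3 and 4 gave 1, 1, 1 and 1. Leaving out the 3 aortas with high skeletal muscle markers gave 10 differing, 10 opposed and 1 in liver. Leaving out single libraries gave 7 to 150 differing, 7 to 125 opposed, 57 to 344 in aorta (57 without aorta OD replicate 4), 1 to 8 in liver and 0 to 1 shared. The cause of these shifts was not tested, except that EPA or DHA alone, thinning and left-out libraries use fewer libraries or counts.

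Reversed signs concerned genes whose difference did not pass. Fads1 had -0.017 with TMM over all libraries, -0.31 with library totals, -0.057 with DESeq2, -0.029 with limma, -0.014 at a minimum count of 20, -0.11 for DHA, -0.23 thinned, -0.018 without both aorta OD replicates, -0.031 without the high skeletal muscle aortas, and -0.080 to 0.10 without single libraries. Abca1 had -0.21, -0.032, -0.83, -0.38 and -0.096 with library totals, EPA alone, thinning, the covariate and without both aorta OD replicates, and -0.030 to 0.22 without single libraries. Library totals gave -0.033 for Acsl1, -0.12 for Dusp1 and -0.15 for Gadd45g, and DHA alone -0.056 for Dusp1. Thinning gave -0.14 for Elovl5, 0.47 for Cd36 and 0.067 for Fabp4. The covariate gave -0.66 for Cpt2, -0.44 for Angptl4, -0.49 for Acsl1 and -0.52 for Gadd45g; without both aorta OD replicates Gadd45g had -0.025. Without single libraries Hspa8 ranged -0.35 to 0.060 and Fabp4 -0.32 to 0.0019. Over the named genes, 2322 values kept direction and side of the threshold, among them values of genes that passed in neither. Another 444 lost the call, all of them among the 36 named genes that differed, while 20 gained one and 42 reversed sign.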
